A study of Mus musculus with 48 samples.

Results

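The respiratory chain genes encoded in the nucleus were followed in T cells stimulated through the T cell receptor, both alone and with PD-1, a receptor that dampens activation, engaged. Members were chosen by symbol: names that begin with Nduf, Uqcr, Cox4 to Cox8 or Atp5, and Sdha to Sdhd. This gave 85 of the 10967 genes in either deposited table, and 82 were in both. Of these, 84 were among the 10098 genes of the hybridoma and 83 among the 10219 of the CD4 cells. By symbol, 37 members belong to complex I, 4 (Ndufaf1 to Ndufaf4) are assembly factors of complex I, 4 belong to complex II, 8 to complex III, 15 to complex IV and 17 to complex V. The symbol rule also takes in names that are not core subunits. Cox4nb lies next to the Cox4 gene and encodes a subunit of a membrane protein insertase of the endoplasmic reticulum, and Atp5s and Atp5sl are not parts of the ATP synthase itself. Atp5g2 was in neither table. Atp5b and Atp5l2 were in the hybridoma table only, and Cox6b2 in the CD4 table only.

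The chain passes electrons from NADH (complex I) and succinate (complex II) through complex III to oxygen at complex IV, and pumps protons across the inner mitochondrial membrane. Complex V, the ATP synthase, uses the proton gradient to make ATP. Most subunits are encoded in the nucleus and the rest in mitochondrial DNA, while complex II is encoded wholly in the nucleus. T cells that are activated through their receptor grow and build up mitochondrial mass.

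CAGE, which counts the capped 5′ ends of RNA, was run on total RNA in 48 mouse libraries. Of these, 26 came from DO11.10, a T hybridoma line of strain label BALB/c x AKR/J whose receptor recognises an ovalbumin peptide (pOVA), given at 0, 1, 10, 100, 1000 or 10000 nM. The other 22 came from primary CD4+ T cells of BALB/cCrSlc mice, given the anti-CD3 antibody 2C11 at 0, 10, 100, 1000 or 10000 ng/ml. Each dose was run without and with PD-1 engagement, in 2 libraries a group and in 3 at 10000. The labels name no genetic alteration. The hybridoma is 1 line. The labels give neither the way PD-1 was engaged nor the time of stimulation, the age of the mice or whether replicates were separate cultures, so p-values measure the spread between these libraries, which may be technical. Values are RPM, tag counts scaled to the same total in every library. CAGE counts 1 tag per transcript end, so levels of different genes can be compared without a length correction. In these bulk samples, fewer cells of a type and less RNA per cell cannot be told apart.

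Library totals were 7.79 to 19.7 M tags in the hybridoma and 4.42 to 22.8 M in CD4 cells, where 1 tag was worth at most 0.226 RPM. T cell markers (Cd3e, Lck and others) summed to 1303 to 2010 RPM in the hybridoma, whose table lists no Cd4, and to 3675 to 5922 RPM in CD4 cells. Of 8 myeloid markers Cst3 alone is listed, and Cd8a is in neither table. Markers of B cells and of cells that present antigen summed to 87.3 to 287.4 RPM in most hybridoma libraries, and to 1218 and 988.6 RPM in the number 2 libraries of dose 0 without and with engagement. In CD4 cells the same markers summed to 544.4 to 1236 RPM. The 26 hybridoma libraries also fell into 2 sets, which the labels do not name. The sets were drawn from these data, at the widest gap in the level of 1 gene, BC002163, whose symbol is outside the rule. BC002163 lay between 109.9 and 134.2 RPM in 10 libraries and between 282.4 and 347.0 RPM in 16. The set of 10 held all dose 0 libraries, the number 1 libraries of 10 and 100 nM and the number 2 libraries of 10000 nM, engaged and unengaged alike. The set of 16 held the rest, with all libraries of 1 and 1000 nM. In all, 149 of 10094 genes (1.48%), 6 members among them, did not overlap between the sets. BC002163 itself is counted there, by the way the sets were drawn.

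Respiratory chain genes were among the abundant transcripts of both systems. Their median level was 211.0 RPM in the hybridoma against 22.4 RPM over all genes, and 157.7 RPM in CD4 cells against 22.1 RPM. In the hybridoma 78 of 84 members, and in CD4 cells 75 of 83, lay above the median of all genes. Their share of all tags with a gene name was 2.75 to 3.25% in hybridoma libraries and 2.03 to 2.95% in those of CD4 cells. All members passed the low-value filter of at least 1 RPM in at least 2 libraries. Levels differed widely within each complex although most of these subunits occur once per complex. Among complex I members, the hybridoma mean was highest for Ndufa4 (580.1 RPM), a subunit now assigned to complex IV, and lowest for Ndufs5 (37.3 RPM), a small accessory subunit. In CD4 cells these places went to Ndufa5 (440.5 RPM) and Ndufa3 (15.2 RPM), both accessory subunits.

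In complex II the iron-sulfur subunit Sdhb was highest (197.7 RPM in the hybridoma, 190.1 RPM in CD4 cells) and the membrane anchor Sdhc lowest (36.8 and 31.6 RPM). Complex III ran from Uqcrq (391.1 RPM) down to Uqcrb (49.2 RPM) in the hybridoma, and from the hinge protein Uqcrh (575.1 RPM) to Uqcrb (34.3 RPM) in CD4 cells. Complex IV held the highest members of all. Cox6c averaged 1759 RPM in the hybridoma and Cox8a 1005 RPM in CD4 cells, while Cox7a1, a heart and muscle isoform, averaged 14.6 RPM in the hybridoma and Cox6b2, a testis isoform, 3.03 RPM in CD4 cells. Atp5j2, a membrane subunit of the ATP synthase, was the highest of complex V (1286 and 535.8 RPM), and Atp5l2 (3.01 RPM, hybridoma) and Atp5s (6.47 RPM, CD4 cells) were the lowest. Among assembly factors Ndufaf4 was highest (66.8 and 37.3 RPM).

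Start sites were compact. The strongest tag cluster (a short stretch of start sites) of a member spanned a median of 33 bases in the hybridoma, against 47 over all genes, and 30 against 44 in CD4 cells. More than 1 cluster was listed for 13 members in the hybridoma and 8 in CD4 cells. Some of these clusters were a single base wide (mm9, coordinates as deposited). A single base at chromosome 10, 79715140, held 50.4% of the hybridoma tags of Ndufs7, an iron-sulfur subunit of complex I, and one at chromosome 6, 24477319, held 52.3% of the CD4 tags of Ndufa5. Of Ndufb11, an accessory subunit, a second start (chromosome X, 20194676 to 20194704) gave 23.5% of the CD4 tags at dose 0 and 12.8% at 10000 ng/ml. The catalytic beta subunit Atp5b had no usable value. Its hybridoma clusters averaged 3.90 and 2.94 RPM (chromosome 10, 127523351 to 127523422 and 127525374 to 127525490), while a cluster 2991 bases upstream that the table marks as belonging to several genes averaged 1095 RPM.

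Promoter sequences were searched for motifs of factors known to act at genes of oxidative phosphorylation. RefSeq windows (GRCm38.p6, 250 bases before to 50 after the start) were matched for 68 of 85 members, in 73 windows. The core of the NRF-1 motif, CGCATGCG, which reads the same on both strands, was in 12.3% of member windows, in 4.38% of the windows of all measured genes and in 1.87% of all 32851 windows. The ETS motif of GABP, CCGGAAG on either strand, was in 23.3, 19.1 and 8.86% of these, the YY1 motif AAGATGG in 13.7, 7.59 and 6.34%, and the MYC E-box CACGTG in 8.22, 10.5 and 7.15%. CCAAT was in 43.8, 38.3 and 37.4%, and TATAAA in 8.22, 6.68 and 13.6%. A match is a description of letters, not a shown binding site. The 180 bases before the start are printed in the direction of transcription for 4 of the 9 members with the NRF-1 core, among them Ndufaf4, the member with the largest stimulation difference at the top dose, for Atp5g1, the subunit with the steepest increase in CD4 cells, and for Cox7a2l, which decreased there. Capitals mark matches to the NRF-1, ETS, YY1 and E-box motifs.
Ndufaf4 (chr4:24897903-24898082, plus strand): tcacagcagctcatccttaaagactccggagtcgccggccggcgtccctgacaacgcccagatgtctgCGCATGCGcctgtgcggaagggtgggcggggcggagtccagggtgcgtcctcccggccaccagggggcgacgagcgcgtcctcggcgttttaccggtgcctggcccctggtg
Cox6a1 (chr5:115348959-115349138, minus strand): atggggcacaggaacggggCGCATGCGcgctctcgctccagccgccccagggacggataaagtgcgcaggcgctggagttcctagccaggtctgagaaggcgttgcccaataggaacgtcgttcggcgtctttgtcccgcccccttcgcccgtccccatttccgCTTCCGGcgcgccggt
Atp5k (chr5:108434400-108434579, minus strand): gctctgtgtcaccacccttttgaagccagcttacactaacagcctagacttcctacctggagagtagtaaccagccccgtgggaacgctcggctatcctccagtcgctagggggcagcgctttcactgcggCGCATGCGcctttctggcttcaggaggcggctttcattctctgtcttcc
Ndufa11 (chr17:56717582-56717761, plus strand): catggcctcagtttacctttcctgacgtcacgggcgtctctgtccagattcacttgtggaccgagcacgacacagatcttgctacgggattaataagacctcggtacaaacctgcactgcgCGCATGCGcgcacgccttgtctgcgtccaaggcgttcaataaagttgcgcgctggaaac
Atp5g1 (chr11:96075632-96075811, minus strand): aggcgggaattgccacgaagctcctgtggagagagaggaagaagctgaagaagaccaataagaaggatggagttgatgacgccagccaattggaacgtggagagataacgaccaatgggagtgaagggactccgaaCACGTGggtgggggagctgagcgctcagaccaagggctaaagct
Cox7a2l (chr17:83514334-83514513, minus strand): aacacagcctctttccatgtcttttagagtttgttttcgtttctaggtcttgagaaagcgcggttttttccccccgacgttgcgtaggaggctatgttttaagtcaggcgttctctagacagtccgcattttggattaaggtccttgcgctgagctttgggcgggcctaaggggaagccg
The NRF-1 core stands in capitals in each of the first 4 sequences. Cox6a1 also holds the ETS motif on the other strand close to its start, Atp5g1 holds an E-box, and the printed Cox7a2l stretch holds none of the 4 motifs.

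The first comparison asks what stimulation alone did to these genes in primary CD4+ T cells, 10000 ng/ml 2C11 against dose 0 without engagement. Respiratory chain genes were mostly higher. Of 83 members, 55 were called higher and 6 lower, against 27.5% and 40.1% of all 10217 genes tested (limma, Benjamini-Hochberg adjusted p under 0.05, over all genes). The median log2 difference was 0.35 over members and -0.15 over all genes, on log2(RPM + 1). The libraries did not overlap between the groups for 65 members in the higher and 7 in the lower direction, against 32.9% and 47.6% of all genes. Quantile normalization, which moves the median of all genes to -0.03, gave 46 higher and 6 lower (all genes: 32.1% and 34.3%). With edgeR and TMM factors on recovered tags, 70 were higher and 5 lower. The edgeR counts over all genes are given with the processing. The summed level of all members was 15926 and 15176 RPM at dose 0 and 20405, 20479 and 20636 RPM at 10000 ng/ml. All 3 stimulated libraries lay above both unstimulated ones. T cell markers moved the other way, with 10 of 12 lower, 1 higher and a summed level of 4239 to 4310 RPM against 5428 to 5602 RPM. Of the 12 B cell and presenting cell markers 1 was lower and none higher. Cytotoxic markers had 2 of 5 higher and 1 lower, with a summed level of 274.2 to 284.0 RPM against 110.4 to 139.3 RPM. The part of T cell and cytotoxic markers in the result was not tested. With the mean level of 5 B cell markers as a covariate, 59 members were higher and 7 lower, given without the share of all genes.

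**Figure D1:**
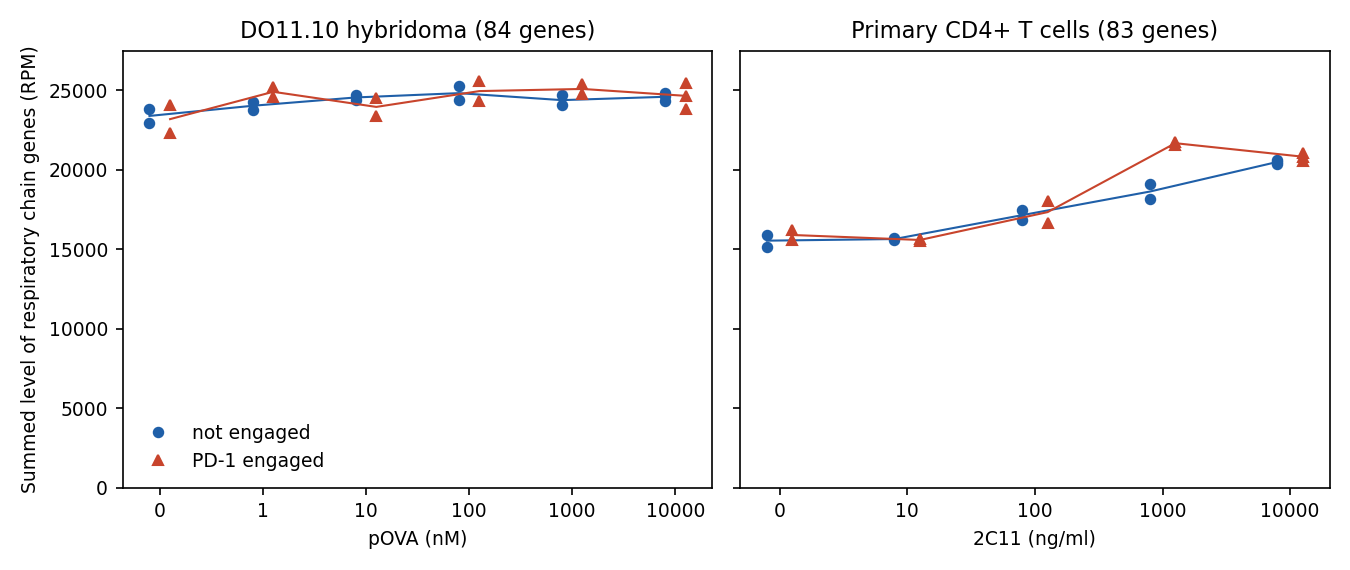
Summed level of respiratory chain genes (RPM, y axis) in each library against the dose of pOVA (hybridoma, left) or 2C11 (CD4 cells, right); circles are libraries without and triangles libraries with PD-1 engagement, and lines join group means. In CD4 cells the sum goes from 15176 to 15926 RPM at dose 0 to 20405 to 20636 RPM at the top dose without engagement, while the hybridoma stays at or above 22335 RPM at every dose.

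Complex I, which takes electrons from NADH, had 26 of 37 members higher and 2 lower, with a median log2 difference of 0.29. Its summed level was 5509 ± 91.7 RPM (mean ± SD, n = 2) at dose 0 and 7272 ± 20.3 RPM (n = 3) at the top dose. Ndufa12, an accessory subunit related to an assembly factor, was at 85.8 and 84.5 RPM unstimulated and 183.7, 187.7 and 169.4 RPM stimulated. Its libraries did not overlap, and the log2 difference was 1.07 (SE 0.12, limma adjusted p = 2.25e-07). Ndufab1, the acyl carrier protein of mitochondria, went from 101.1 and 103.9 RPM to 204.7, 213.9 and 221.9 RPM. Its log2 difference was 1.05 (SE 0.09, limma adjusted p = 2.09e-09), again with no overlap. Ndufb6, a membrane arm subunit, was at 208.2 and 210.2 RPM before and at 413.8, 418.8 and 410.8 RPM after stimulation, close to a doubling in every library. Ndufa5 and Ndufb2, further accessory subunits, followed with log2 differences of 0.83 and 0.80.

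Subunits of the catalytic core of complex I differed in size of change. The iron-sulfur subunits Ndufs7 (0.60) and Ndufs8 (0.53) and the core subunit Ndufs3 (0.41) were called higher, as was Ndufs1, the largest iron-sulfur subunit, with a log2 difference of 0.28 (limma adjusted p = 0.0387). Ndufv1, which binds NADH, had 0.20 and was not called (limma adjusted p = 0.0701), nor was Ndufv2 (0.12). Ndufa6, an accessory subunit, was lower, from 298.1 and 292.1 RPM to 235.5, 231.9 and 231.8 RPM, without overlap (log2 -0.34, SE 0.06, limma adjusted p = 7.65e-05). Ndufa4 was higher (0.67). Ndufb4 varied too much between replicates to be read, as given below.

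The assembly factors of complex I gave the steepest single increase. Ndufaf4, which is needed early in complex I assembly, was at 12.4 and 14.6 RPM at dose 0 and at 73.9, 74.2 and 63.4 RPM at 10000 ng/ml (strongest cluster on mm9 chromosome 4, 24825235 to 24825287, plus strand). The groups lay far apart. The log2 difference was 2.30 (SE 0.13, limma adjusted p = 1.57e-11), a 4.93-fold change on that scale, and it stayed between 2.09 and 2.55 over all alternatives. Levels at 10, 100 and 1000 ng/ml were 12.6 and 11.9, 24.4 and 26.9, and 60.8 and 64.2 RPM, so that most of the increase lay between 100 and 1000 ng/ml. Ndufaf1 and Ndufaf2 were also called higher (0.37 and 0.74), and Ndufaf3 was not called. Ndufaf4 is the first of the sequences printed above.

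Complex II, which links the chain to the TCA cycle, had none of its 4 members called higher at the top dose. The flavoprotein Sdha was lower, from 140.6 and 154.5 RPM to 114.0, 126.7 and 106.3 RPM (log2 -0.35, SE 0.08, limma adjusted p = 0.000570), with no overlap. Sdhb (log2 0.09), Sdhc (0.23) and Sdhd (0.13) were not called. With quantile normalization Sdhc was called higher (0.36, limma adjusted p = 0.0171), and at 1000 ng/ml Sdhd was (0.30, limma adjusted p = 0.0133). The complex summed to 406.4 ± 17.6 RPM (n = 2) unstimulated and 396.3 ± 23.6 RPM (n = 3) stimulated.

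In complex III, 6 of 8 members were higher and none lower, with a median log2 difference of 0.54. Uqcrq, a small subunit of this complex, was at 206.4 and 194.1 RPM at dose 0 and at 367.9, 393.8 and 370.6 RPM at the top dose. The 2 groups were far apart (log2 0.91, SE 0.07, limma adjusted p = 2.41e-09). Uqcrb (0.80) and Uqcr11 (0.73), 2 further small subunits, came next. The Rieske iron-sulfur protein Uqcrfs1 (0.48) and the core protein Uqcrc1 (0.23) were called higher with smaller differences.

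Complex IV, cytochrome c oxidase, had 10 of 15 members higher and 2 lower (median log2 0.47). Cox5a, a structural subunit, was at 133.2 and 133.4 RPM unstimulated and 236.4, 231.2 and 263.2 RPM stimulated, with no overlap (log2 0.86, SE 0.08, limma adjusted p = 1.31e-08). Cox7a2, the widely expressed isoform of subunit VIIa, had a log2 difference of 0.71, Cox4nb 0.72, Cox6a1 0.49 and Cox4i1 0.36. Cox7a2l, which joins complexes III and IV into supercomplexes, went the other way. It was at 294.7 and 304.7 RPM at dose 0 and 181.0, 171.7 and 166.1 RPM at 10000 ng/ml, all lower (log2 -0.79, SE 0.07, limma adjusted p = 6.50e-09). Cox6b2 was also lower (log2 -0.74, adjusted p = 0.0102 in limma), at 4.29 and 3.79 against 1.37, 1.97 and 2.85 RPM, which is few tags. Cox6a2, the heart and muscle isoform of subunit VIa, was called higher (0.46, limma adjusted p = 0.0124), but not without the number 2 library of dose 0 (limma adjusted p = 0.148).

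In complex V, 10 of 15 members were higher and 1 lower (median log2 0.30). Atp5g1, one of 3 genes for the same membrane ring subunit, stood out at 78.1 and 79.1 RPM unstimulated and 182.5, 212.4 and 199.7 RPM stimulated. The log2 difference was 1.32 (SE 0.12, limma adjusted p = 9.30e-09), and all stimulated libraries were more than 2-fold above the unstimulated ones. Atp5g3, another gene for the same subunit, had 0.74 and Atp5e, a small stalk subunit, also 0.74. The catalytic alpha subunit Atp5a1 was not called (0.13). Atp5sl was lower, from 21.5 and 24.9 RPM to 12.2, 13.0 and 10.4 RPM (log2 -0.92, SE 0.15, limma adjusted p = 2.72e-05).

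**Figure D2:**
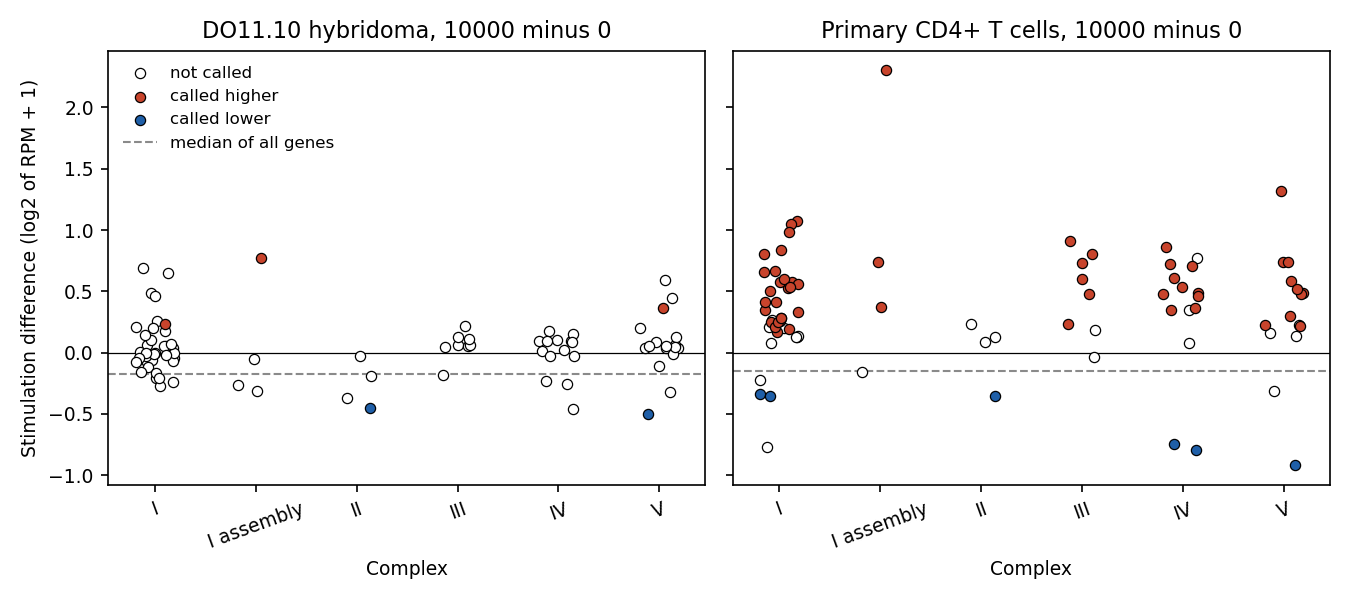
Log2 difference of each member on stimulation at the top dose (y axis, log2(RPM + 1) scale), by complex (x axis), in the hybridoma (left) and in CD4 cells (right); each point is 1 gene, red or blue where limma called it, and the dashed line is the median of all genes. CD4 points lie mostly above 0, up to 2.30 for Ndufaf4, and hybridoma points lie around a median of 0.04.

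Of the 9 members with the NRF-1 core, 8 were called higher in CD4 cells. Their log2 differences were 2.30 for Ndufaf4, 0.73 for Uqcr11, 0.58 for Atp5j, 0.52 for Atp5k, 0.49 for Cox6a1, 0.35 for Ndufa11, 0.29 for Ndufa8 and 0.23 for Uqcrc1, while Atp5l (0.23) was not called. Among members with a promoter window, the core was thus in 8 of 45 called higher, in 0 of 4 called lower and in 1 of 18 not called. Most members called higher lack it, and sizes among those that hold it run from the largest of all to one of the smallest. The ETS motif was in 12 of 45 called higher and in 5 of 18 not called, which are similar shares.

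The increase was graded with dose. At 10 ng/ml no member was called in either direction, as was the case for all genes (0.00%), and 1 member had an unadjusted limma p under 0.05. At 100 ng/ml, 22 were higher and 2 lower (all genes: 19.2% and 7.21%), so that the share of members called higher was near that of all genes. Without any 1 of the 4 libraries of the groups compared at that dose, 11 to 14 were called higher and 1 or 2 lower. Quantile normalization gave 14 and 4. Both are given without the share of all genes. At 1000 ng/ml, 40 were higher and 7 lower (all genes: 31.1% and 29.9%). All these doses share the dose 0 libraries. The summed level was 15653 ± 107 RPM at 10 ng/ml, 17156 ± 429 RPM at 100 ng/ml and 18640 ± 635 RPM at 1000 ng/ml (SD, n = 2 each).

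**Figure D3:**
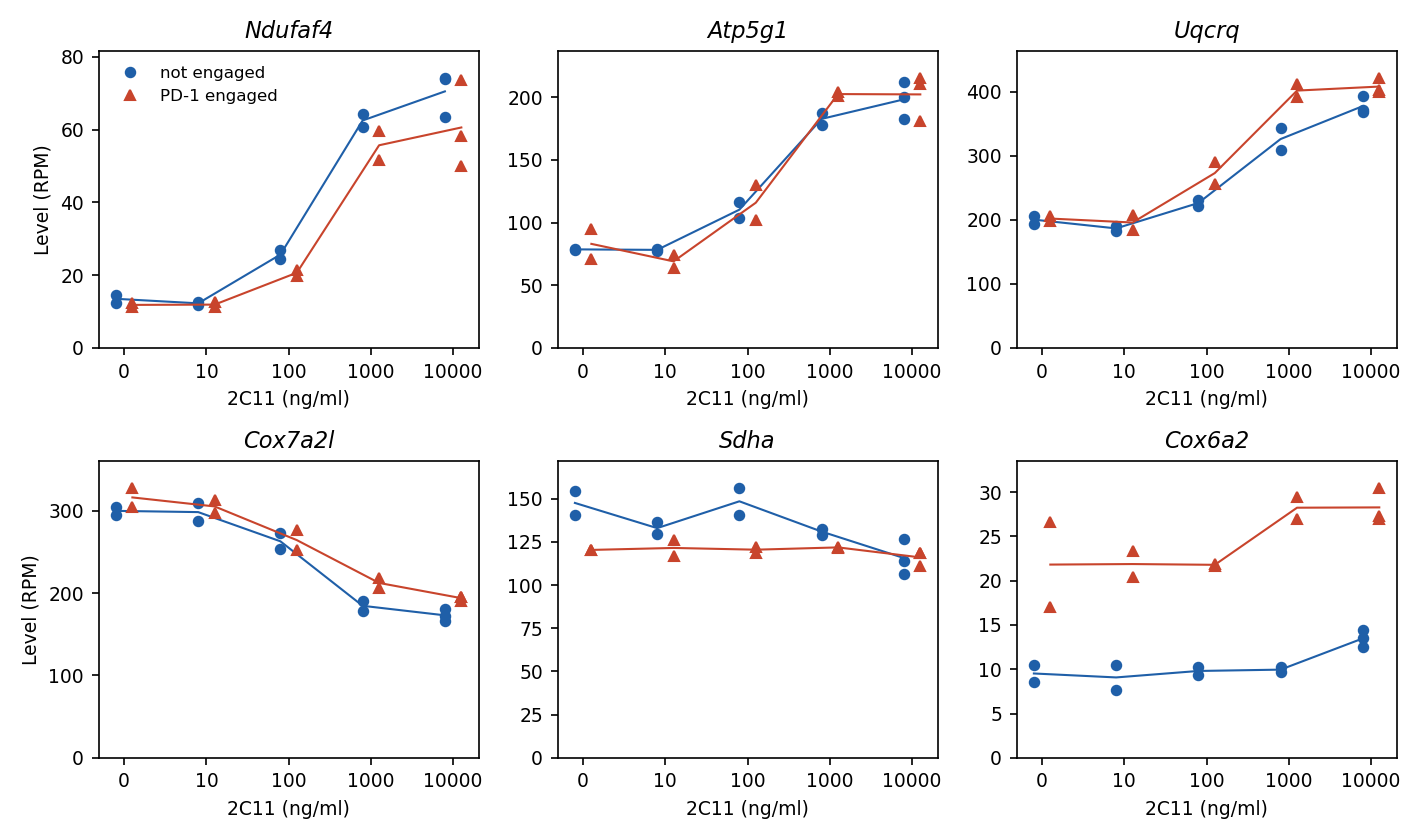
Level of 6 members (RPM, y axes starting at 0) in each CD4 library against the dose of 2C11 (x axis); circles are libraries without and triangles libraries with PD-1 engagement, and lines are group means. Ndufaf4, Atp5g1 and Uqcrq climb with dose, Cox7a2l goes down from 294.7 and 304.7 RPM, unengaged Sdha ends lower than it starts, and Cox6a2 is higher in engaged libraries at every dose.

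Other genes of mitochondrial respiration were compared as lists. Of 20 regulators of mitochondrial genes, 6 were higher and 6 lower. Myc, a growth regulator, had a log2 difference of 3.36, Pprc1, a coactivator of NRF-1, 2.10, and Lrpprc, which stabilises mitochondrial mRNA, 0.97. Polg2, a subunit of the mitochondrial DNA polymerase, was lower (-0.99), as were the ETS factor Gabpa (-0.29) and Yy1 (-0.57), while Nrf1 itself (-0.21) and Tfam (-0.06) were not called. Of 29 assembly factors outside the symbol rule, 12 were higher and 6 lower, with Taco1 (translation of COX1) at 1.22, the copper chaperone Cox17 at 0.92 and the complex III factor Ttc19 at 0.85 against Tmem126b, a complex I factor, at -0.77.

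Of 27 genes for electron carriers, coenzyme Q synthesis and other entry points, 16 were higher and 2 lower. Among them were Dhodh (pyrimidine synthesis, log2 1.94), cytochrome c (Cycs, 1.43) and the coenzyme Q enzyme Coq7 (1.28), while Adck3, a kinase-like protein of coenzyme Q synthesis, was lower (-1.68). Of 18 TCA cycle genes, 7 were higher and 3 lower, with the NAD-dependent Idh3a at 1.33, the succinyl-CoA ligase subunits Suclg1 at 0.90 and Suclg2 at 0.71, and the NADP-dependent Idh2 at -0.91. Of 4 mitochondrial one-carbon genes, 3 were higher and none lower, Shmt2 by 1.17, Mthfd1l by 1.08 and Mthfd2 by 0.84. These shares are read against 27.5% of all genes higher and 40.1% lower.

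In the hybridoma the same comparison, 10000 nM pOVA against dose 0 without engagement, moved few members. Of 84, 3 were higher and 2 lower, against 8.09% and 20.8% of all 10094 genes tested, and the median was 0.04 over members and -0.18 over all genes (-0.07 and -0.035 with quantile normalization). At an unadjusted p under 0.05 the number was 13. Quantile normalization called 2 higher and 3 lower, given without the share of all genes. Of the 5 members called here 1 alone, Ndufaf4, was called with it. The summed level was 23843 and 22957 RPM at dose 0 and 24822, 24339 and 24648 RPM at 10000 nM.

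Ndufaf4 was again the member that rose most, at 54.0 and 50.01 RPM at dose 0 and 85.3, 90.1 and 92.3 RPM at 10000 nM, with no overlap. Its log2 difference was 0.77 (SE 0.11, limma adjusted p = 3.20e-05). Atp5g3 was at 239.2 and 248.1 RPM against 303.2, 304.3 and 333.5 RPM (log2 0.36, SE 0.08, limma adjusted p = 0.00268). Ndufb6 was higher by 0.24 (SE 0.07, limma adjusted p = 0.0231). The membrane anchor Sdhd of complex II was lower, at 48.4 and 43.7 RPM against 35.2, 36.1 and 29.0 RPM (log2 -0.46, SE 0.16, limma adjusted p = 0.0437), and Atp5sl was lower as well (-0.50, limma adjusted p = 0.0383).

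The 2 sets of hybridoma libraries lie across this comparison, since both dose 0 libraries belong to the set of 10 and 2 of 3 libraries at 10000 nM to the set of 16. With the set as a term in the fit, Ndufaf4 (0.71, limma adjusted p = 0.000112), Atp5g3 (0.31, limma adjusted p = 0.00579) and Ndufb6 (0.20, limma adjusted p = 0.0422) were still called higher and none was called lower (all genes: 8.74% and 16.8%). Sdhd was then at -0.27 (limma adjusted p = 0.145) and Atp5sl at -0.38 (limma adjusted p = 0.119). Within the set of 10, with 1 library at the top dose, the difference was 0.78 for Ndufaf4, 0.32 for Atp5g3 and 0.21 for Ndufb6. Markers of presenting cells also differ here, with 1218 RPM in 1 dose 0 library. The member counts that follow, from fits without some libraries, are given without the share of all genes. Without the number 2 library of 10000 nM, 5 members were higher and 4 lower. Without the number 1 library of that dose 1 was lower, and without the number 2 library of dose 0 or the number 3 library of 10000 nM none was. With both number 2 libraries of dose 0 left out, which hold the high B cell marker levels, 2 members were higher and none lower.

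The 6 members that did not overlap between the sets were Atp5a1, Ndufa3, Ndufa4, Ndufs5 and Uqcrfs1, higher in the set of 16, and Ndufa12, lower there. Atp5a1 lay between 236.1 and 312.9 RPM (median 268.5) in the set of 10 and between 425.2 and 532.4 RPM (median 482.6) in the set of 16. Ndufa3 lay between 88.4 and 104.1 RPM against 153.7 and 188.0 RPM, and Ndufa4 between 376.1 and 506.0 RPM against 595.2 and 720.0 RPM. At 1000 nM, where all libraries belong to the set of 16, Ndufa4 was called higher (0.63, limma adjusted p = 0.0300). With the set as a term it was at 0.19 (limma adjusted p = 0.22).

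At lower doses of pOVA, which share the dose 0 libraries, few members were called. Limma called none at 1 nM (all genes: 0.00%) or 10 nM (0.0297% higher and 0.00% lower), where 6 and 2 had an unadjusted p under 0.05, and at 100 nM 2 were higher and none lower (all genes: 2.84% and 3.19%), Ndufaf4 by 0.55 and Atp5g3 by 0.40. Without the number 2 library of dose 0 or either library of 100 nM, 1 was higher at 100 nM. At 1 nM 1 was lower without the number 1 library of dose 0 or the number 2 library of 1 nM. At 100 nM, Ndufaf4 (0.51) and Atp5g3 (0.36) were called with the set as a term (all genes: 3.45% and 2.71%). At 1000 nM, 4 were higher and 6 lower (all genes: 7.14% and 23.4%). Sdhd (-0.56), Ndufaf1 (-0.56), Ndufv1 (-0.50) and Sdha (-0.44) were among the lower ones. Of the 10 members called at 1000 nM, 4 were called in the same direction with quantile normalization. With the set as a term Ndufaf4 alone was called there (0.49, limma adjusted p = 0.0114), against 4.98% of all genes higher and 11.5% lower. Without the number 2 library of dose 0 or of 1000 nM, 1 was higher and none lower, and without the number 1 library of 1000 nM 1 was higher and 3 lower.

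In the other lists few genes were called higher in the hybridoma. The counts are read against 8.09% of all genes higher and 20.8% lower. Of 20 regulators none was higher and 5 were lower, Ppargc1b, a coactivator of mitochondrial genes, at -1.03, Polg2 at -0.66, the rRNA methyltransferase Tfb1m at -0.60 and the DNA polymerase Polg at -0.53. Of 29 assembly factors outside the rule 2 were higher and 4 lower, and of 27 carrier and entry genes 1 was higher (the coenzyme Q binding protein Coq10b, 0.73) and 1 lower (Dhodh, -0.74). TCA cycle genes had 1 of 18 lower and one-carbon genes 1 of 5 lower, with none higher.

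The 2 systems were compared in 1 joint limma fit of the difference between their stimulation differences, over 82 members. The difference was larger in CD4 cells for 39 members and smaller for 3, against 22.3% and 17.6% of 9350 genes, with a median of 0.38 over members and 0.03 over all genes. Ndufaf4 (1.53), Ndufa12 (1.31), Atp5g1 (1.23) and Ndufab1 (1.00) differed most. Ndufa12 is among the members whose levels did not overlap between the hybridoma library sets, and its value with the set as a term is not given. Ndufa6 (-0.55) and Cox7a2l (-0.53) were among those lower in CD4 cells relative to the hybridoma. With the set of hybridoma libraries as a term the members' counts were 42 and 3, given without the share of all genes. The unstimulated levels differed as well. Atp5g1 stood at 262.4 RPM in both unstimulated hybridoma libraries, above every CD4 library (64.1 to 215.4 RPM). The tables were scaled to library totals separately, and the stimuli, the doses and the cells all differ between the systems.

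PD-1 engagement was compared as the mean of engaged minus unengaged libraries over the stimulated doses. In CD4 cells the median member differed little on the RPM scale, and 1 member stood apart. Members were called higher more often than genes in general. Of 83 members, 24 were higher and 11 lower on engagement, against 4.48% and 41.2% of all genes, with a median of 0.05 over members and -0.15 over all genes. With scalings that bring the median of all genes to 0.00 or -0.01, 51 members were higher and none lower (quantile normalization, all genes 14.1% and 12.7%), or 55 and none (edgeR with TMM factors, 14.7% and 15.2%). Whether the smaller differences are higher or lower therefore depended on the scale. Without the number 1 library of 1000 ng/ml or the engaged number 1 library of 10 ng/ml, 13 were higher. Without the number 2 library of 100 ng/ml or the engaged number 1 library of 1000 ng/ml, 14 were higher and 7 lower. These counts without 1 library are given without the share of all genes.

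Markers of other cells moved with engagement in CD4 cells. Of the 12 listed for B cells and presenting cells 10 were higher, with a median of 0.46, and they summed to 863.8 to 1236 RPM in engaged against 579.1 to 925.4 RPM in unengaged libraries at 10000 ng/ml (1000 ng/ml: 863.5 to 1081 against 544.4 to 701.9 RPM). Of 12 T cell markers 8 were lower and 1 higher (median -0.15), and 2 of 5 cytotoxic markers were lower. The part of T cell and cytotoxic markers in the members' differences was not tested. With the mean level of 5 B cell markers as a covariate, 16 members were higher and 13 lower (median -0.01), and Cox6a2 was still called. The share of all genes in that fit is not given, so these counts describe the members alone.

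Cox6a2 was higher on engagement at every dose, dose 0 included. Its unengaged libraries were at 10.4 and 8.61 RPM at dose 0, 7.66 and 10.5 RPM at 10, 10.2 and 9.39 RPM at 100, 9.65 and 10.3 RPM at 1000 and 12.5, 14.4 and 13.5 RPM at 10000 ng/ml. The engaged ones were at 17.0 and 26.6 RPM, 20.4 and 23.3 RPM, 21.7 and 21.9 RPM, 27.0 and 29.5 RPM, and 30.5, 27.3 and 27.0 RPM at these doses. No engaged library fell as low as any unengaged one. The mean log2 difference over stimulated doses was 1.18 (SE 0.08, limma adjusted p = 2.56e-08), between 1.00 and 1.39 over the alternatives. At dose 0 it was 1.09 (limma adjusted p = 0.00870), a call that was lost without the number 2 library of either group. In the hybridoma Cox6a2 was at 130.3 to 159.0 RPM with a difference of 0.04 on engagement (SE 0.04), not called. Its cluster lies on mm9 chromosome 7, 135349834 to 135349980, minus strand.

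Among the smaller differences, the accessory complex I subunits Ndufs5 (0.22) and Ndufb11 (0.19), Uqcrq (0.19) and Cox6c (0.19) were the next highest. Ndufs5 was not called with the B cell covariate (0.12, limma adjusted p = 0.291). Cox4nb (-0.20), Ndufaf1 (-0.20), Ndufaf4 (-0.18), Ndufa1 (-0.16) and Ndufa10 (-0.16) were the lowest. Both assembly factors had risen with stimulation. Their lower calls rest on the scale, since Ndufaf1 was at -0.02 and Ndufaf4 at 0.00 with quantile normalization, which called no member lower. In complex II, Sdha (-0.13) and Sdhd (-0.12) were lower and none higher, but Sdhd turned above 0 with both other scalings, Sdha with edgeR and Ndufa10 with quantile normalization. In complex IV, 6 were higher and 1 lower, in complex I 13 and 3, in complex III 2 and 2, and in complex V 3 and 1.

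The number of members called higher on engagement was largest at 1000 ng/ml. There 26 were higher and 1 lower (all genes: 3.30% and 19.4%), with a median of 0.18 over members and -0.17 over all genes. With quantile normalization the counts were 41 and 0 (8.27% and 6.22%). Without the number 1 library of that dose 11 were higher and none lower, and without either engaged library 14 were higher. The lower call was also lost without the number 2 library of either group. Uqcr10, a small complex III subunit, was at 283.2 and 304.9 RPM unengaged and 401.6 and 486.3 RPM engaged (log2 0.59, limma adjusted p = 0.00309). Uqcrh was at 471.7 and 487.2 RPM against 643.3 and 607.9 RPM (0.38, limma adjusted p = 0.00335). Both were higher in each engaged library. Atp5e (0.50), the complex I subunits Ndufv3 (0.48) and Ndufa2 (0.44), and Cox6c of complex IV (0.41) followed, and Cox4nb was lower (-0.39).

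At the other doses few members were called. At dose 0, 1 was higher and 3 lower (all genes: 0.763% and 13.6%), Cox6a2 higher, and Atp5a1 (-0.38) and Sdha (-0.29) among the lower. No member was called lower without either library of dose 0 or the engaged number 2 library, 1 was lower without the engaged number 1 library, and quantile normalization gave 2 higher and none lower. At 10 ng/ml only Cox6a2 was called, higher (all genes: 0.0489% higher and 0.705% lower), and not without the number 1 library of that dose. At 100 ng/ml 3 were higher and 6 lower (all genes: 1.91% and 37.3%). These were 1 and 1 without the number 2 library of that dose, 2 lower without its number 1 library, and 20 and 0 with quantile normalization. At 10000 ng/ml 3 were higher, Cox6a2 (1.02), Cox6a1 (0.35) and the complex I subunit Ndufb8 (0.26), and 1 lower, the stalk subunit Atp5d (-0.28; all genes: 5.89% and 2.58%). Without the unengaged number 1 or the engaged number 2 library 1 was higher there. The lower call was lost without the number 2 or 3 library of either group, and 3 were lower without the engaged number 1 library.

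The difference at 1000 ng/ml was then set against that at 10000 ng/ml in a test added after the data were seen. It was larger at 1000 ng/ml for 12 members and smaller for 1 (all genes: 1.41% and 13.1%), with Uqcr10 at 0.91, Atp5e at 0.69, Ndufa3 at 0.66 and Uqcrh at 0.51, and Cox4nb at -0.51. Without the number 1 library of 1000 ng/ml, or the number 1 or 3 library of 10000 ng/ml, 4 were larger. Without an engaged library of 1000 ng/ml (number 1 or 2) or the engaged number 2 library of 10000 ng/ml, 5 or 6 were. The smaller one was 0 without the number 1 or 2 library of 1000 ng/ml, the number 3 library of 10000 ng/ml or the engaged number 2 library of either dose, and 2 without the number 2 library of 10000 ng/ml or its engaged number 1 library. The unengaged Uqcrh level was lower at 1000 ng/ml than at dose 0 (597.7 and 574.5 RPM) and 10000 ng/ml (593.9, 534.2 and 583.8 RPM), so the unengaged libraries of 1000 ng/ml also stand apart from their neighbours in this gene.

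**Figure D4:**
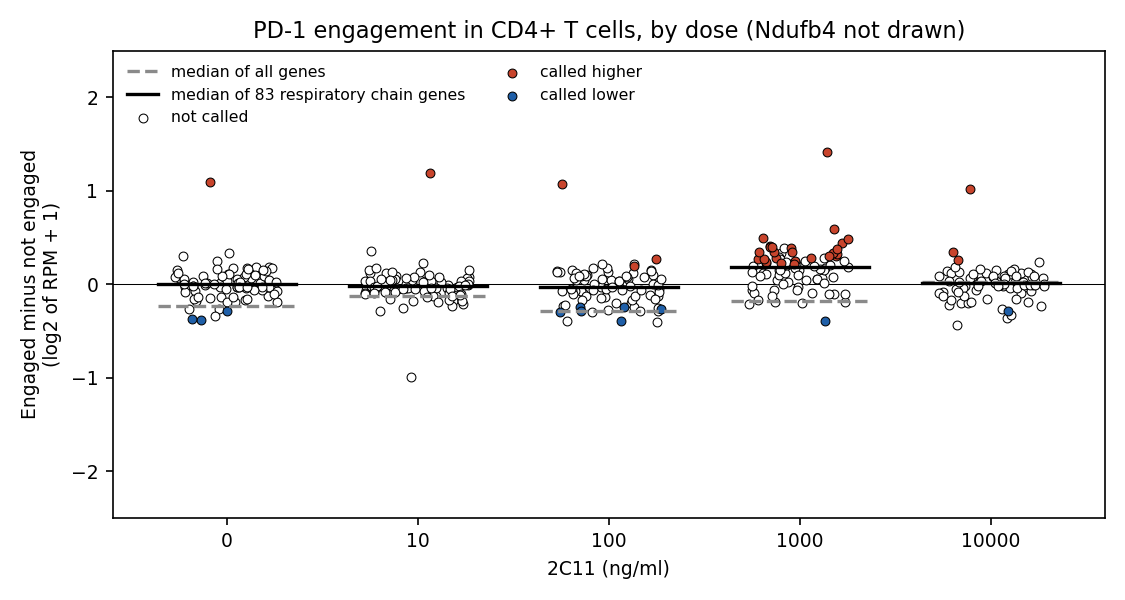
Log2 difference of each member on PD-1 engagement in CD4 cells (y axis, log2(RPM + 1) scale) at each dose of 2C11 (x axis); points are genes (Ndufb4 is not drawn) and lines are the medians of members and of all genes. Cox6a2 lies apart at every dose between 1.02 and 1.42, and the member median is furthest from that of all genes at 1000 ng/ml.

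In each of the other lists more genes were called lower than higher on engagement in CD4 cells, to be read against 41.2% lower and 4.48% higher over all genes. Of 20 regulators 14 were lower and none higher, Pprc1 by -0.57, Nrf1 by -0.39, Esrra, a nuclear receptor of mitochondrial genes, by -0.38 and Lrpprc by -0.38. Of 29 assembly factors outside the rule 2 were higher and 6 lower, of 27 carrier and entry genes 2 and 9, of 18 TCA cycle genes 0 and 8, and of 4 one-carbon genes 0 and 3. Idh3a was at -0.33 and citrate synthase (Cs) at -0.28. With quantile normalization these counts were 1 and 7 for regulators, 11 and 0 for assembly factors, 4 and 3 for carriers, 4 and 3 for the TCA cycle and 0 and 2 for one-carbon genes, against 14.1% higher and 12.7% lower over all genes.

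In the hybridoma no member was called for engagement, in the mean (all genes: 0.0594% higher and 0.872% lower) or at any dose (all genes, higher and lower: 0.00% and 0.00% at dose 0 and 1 nM, 0.00% and 0.0396% at 10 nM, 0.00991% and 0.485% at 100 nM, 0.00991% and 0.0693% at 1000 nM, 0.0693% and 0.337% at 10000 nM). At an unadjusted limma p under 0.05 there were 2 in the mean and 0 to 3 at a dose, edgeR called none in the mean, and the median was 0.02. Without the number 2 library of 1 nM, 1 was higher. None of the other lists had a gene called. Partner libraries, which share dose and number, resembled each other in this line, and with that pair as a block 3 members were higher and 2 lower in the mean (all genes: 1.99% and 4.52%). Ndufb4, which was unsteady between libraries, was at 0.86, Sdhc at 0.14 and Cox6b1 at 0.10, against Cox6a1 at -0.10 and the complex I subunit Ndufb8 at -0.09. The blocked fit gave 7 higher and 2 lower at 1000 nM (all genes: 5.32% and 2.02%), with Cox6b1 at 0.37, Uqcrq at 0.35 and Sdha at 0.29 against Ndufa2 at -0.31. At 100 nM it called Ndufaf4 lower (-0.28, limma adjusted p = 0.0232; all genes 3.76% lower). Ndufaf4 was at 78.3 and 75.2 RPM unengaged and 61.9 and 64.0 RPM engaged at that dose, without overlap.

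A few members varied far more between libraries of 1 group than the rest. The largest ratio between libraries of a group had a median of 1.25 over members in the hybridoma and 1.22 in CD4 cells, and passed 2-fold for 3 and 4 members. Ndufb4, a membrane arm subunit of complex I, was at 7.43, 255.2 and 128.6 RPM in the 3 engaged CD4 libraries of 10000 ng/ml, a ratio of 34.3, and at 8.20 and 78.5 RPM at 1 nM in the hybridoma. Its CD4 libraries lay either at or under 12.6 RPM or at or above 33.2 RPM, with both kinds inside 1 unengaged group at 10, 100 and 10000 ng/ml. Cox5b, a structural subunit of complex IV, was at 65.9 and 333.8 RPM in the engaged libraries of 10 ng/ml. Its stimulation difference in CD4 cells was 0.77 with an SE of 0.51, not called. Atp5a1 in the hybridoma followed the library sets given above, as at 10000 nM with 530.7, 262.7 and 425.2 RPM unengaged and 522.2, 257.6 and 429.2 RPM engaged.

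**Figure D5:**
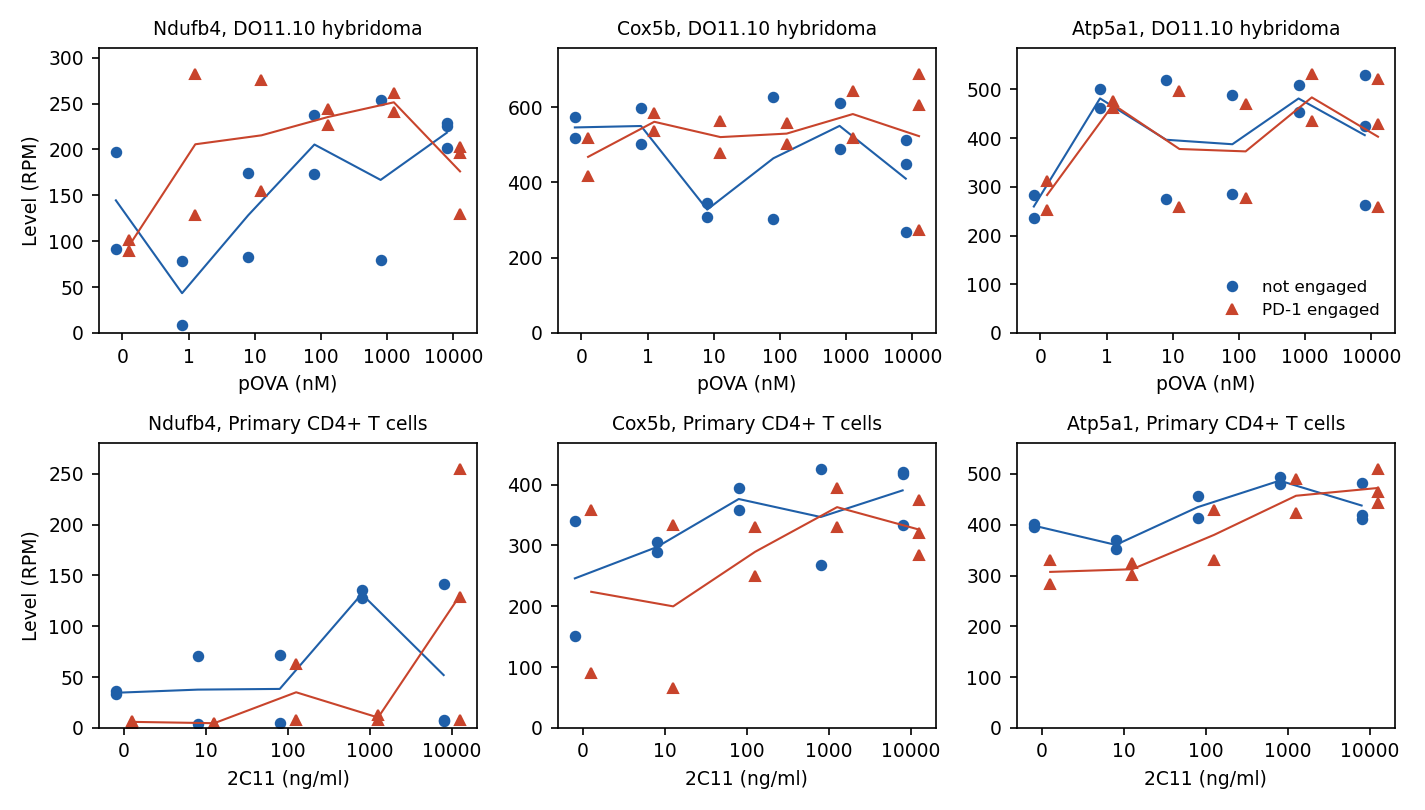
Level of Ndufb4, Cox5b and Atp5a1 (RPM, y axes starting at 0) in each library against dose (x axis) in the hybridoma (top) and CD4 cells (bottom); circles are libraries without and triangles libraries with PD-1 engagement, and lines are group means. Ndufb4 jumps between 7.43 and 255.2 RPM within a group, and Atp5a1 of the hybridoma lies at 2 levels that engaged and unengaged libraries of a number share.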

How the data were processed

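For each system the authors deposited RPM values, 1 for each tag cluster in each library. Low values were whole multiples of 1 step, so tags were recovered: at least 99.89% of the values came out whole within 0.1 tag. The submitters' processing notes name the aligners BWA (0.7.12) and HISAT2 (2.0.5) and build mm9. The way clusters were called and named is not stated. Every cluster reached 3.00 RPM in some library, so weak start sites are missing.

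Values were summed per symbol over clusters with a single symbol (Python 3.11.15, pandas 2.3.3). Differences were fitted on log2(RPM + 1) with limma 3.58.1 (trend, R 4.3.3) per system, with 1 mean per group and 1 shared spread, for genes that reached 1 RPM in 2 libraries or more. An adjusted p under 0.05 was called, and SEs are from this fit. Members are more abundant than most genes, and the shares of all genes were not matched for level. Recovered tags were tested with edgeR 4.0.16, which called 3519 genes higher and 3542 lower on CD4 stimulation. Fits with the library sets, without both number 2 libraries of dose 0, and of 1000 minus 10000 ng/ml were added after the data were seen. The script was tested on simulated data. The motif core searched for NRF-1 was shortened after a first search with a longer form. Deposited clusters held 91.0 to 92.3% of the hybridoma and 81.8 to 87.1% of the CD4 totals. In CD4 cells this share was lower in engaged libraries at 3 doses, without overlap. It was 83.48 and 83.54% against 85.59 and 86.19% at dose 0, and 83.27 and 83.84% against 84.81 and 85.97% at 10 ng/ml. At 100 ng/ml it was 81.81 and 85.09% against 86.63 and 87.13%. At 1000 and 10000 ng/ml engaged and unengaged libraries overlapped. The part of this share in the engagement differences was not tested.

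In the hybridoma, the engaged library and its unengaged partner (same dose, same number) deviated together (correlations from 0.256 to 0.759 over all genes), so the pairing comes from the data and its block is printed where it changes a call. In CD4 cells such correlations ran from 0.013 to 0.255 over all genes and from -0.539 to 0.905 over members. They do not settle whether the numbers pair the samples there.

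The text names, per main contrast, the 5 members called higher and the 5 called lower with the largest difference, a fixed list of 20, the most and least abundant of each complex, members with several clusters, and up to 4 called genes of each list. Other members named were chosen after their values were seen. The values of 1 member are not reported here, though counts and sums include it. Members and lists were chosen with earlier results of these data known.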

Additional observations from a re-analysis of the deposited data

Results flagged for a closer look

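The stimulation difference of respiratory chain genes differed between the 2 systems, by the test of that difference in a joint limma fit of both tables. It was larger in CD4 cells for 39 members and smaller for 3, against 22.3% and 17.6% of 9350 genes. Given as the CD4 minus the hybridoma log2 difference, the values among the named members were as follows. In complex I they were 1.31 for Ndufa12, 1.00 for Ndufab1, 0.88 for Ndufs7, 0.75 for Ndufb6, 0.57 for Ndufa5, 0.55 for Ndufs8 and 0.45 for Ndufs1. Among its assembly factors they were 1.53 for Ndufaf4, 0.79 for Ndufaf2 and 0.69 for Ndufaf1, and in complex II 0.58 for Sdhd. In complex III they were 0.87 for Uqcrq, 0.74 for Uqcrb and 0.41 for Uqcrc1. In complex IV they were 0.95 for Cox4nb, 0.85 for Cox5a, 0.69 for Cox7a2, 0.49 for Cox6a2, 0.30 for Cox6c and -0.53 for Cox7a2l. In complex V they were 1.23 for Atp5g1, 0.55 for Atp5j, 0.38 for Atp5g3 and 0.35 for Atp5j2. Ndufa12 did not overlap between the hybridoma library sets, which lie across its stimulation comparison.

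A signal outside the summed values lay upstream of the hybridoma clusters of Atp5b, where a cluster marked as belonging to several genes averaged 1095 RPM.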

How the results depend on the processing

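Counts are members called higher and lower, and the share of all genes is not given here. Quantile normalization gave 1 higher at 100 nM in the hybridoma, 14 and 4 at 100 ng/ml in CD4 cells, and 5 lower between the systems. For engagement in CD4 cells it gave 51 and 0 in the mean, 2 and 0 at dose 0, 20 and 0 at 100 ng/ml, 41 and 0 at 1000 ng/ml, 2 lower at 10000 ng/ml, and 0 lower for 1000 minus 10000 ng/ml. edgeR gave 55 and 0 in that mean. Signs turned there for Sdhd (0.059 quantile, 0.022 edgeR), Uqcrfs1 (0.009, 0.010) and Ndufs8 (0.123, 0.122), for Ndufa10 with quantile normalization (0.025), and for Sdha (0.010) and Uqcrc1 (0.020) with edgeR. The scalings move the median of all genes toward 0.

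For hybridoma stimulation at 10000 nM the lower count was 1 with the replicate block, with a mean of at least 10 RPM or with the most abundant cluster alone, and 0 with edgeR, without both number 2 libraries of dose 0, and with the library set as a term. It was 1 higher and 0 lower with only the groups compared, and 0 and 0 within the set of 10 libraries. The set as a term gave 1 and 0 at 1000 nM and turned Ndufa3 between the systems (0.490), and within the set of 10, with 1 unengaged library at 100 nM, the higher count there was 0. Beyond fewer samples in some of these fits, the cause was not tested.

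The replicate block gave, for hybridoma engagement, 3 and 2 in the mean, 1 lower at 100 nM, and 7 and 2 at 1000 nM. In CD4 cells, where the correlations do not settle the pairing, it gave 2 lower at 1000 ng/ml and 3 lower at 10000 ng/ml. For the CD4 mean it called 29 members against 35, with 27 calls shared in direction. It moved no other count by over 1.5 times.

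Leaving out 1 library gave ranges. Like the single counts of such fits above, they are given without the share of all genes. CD4 stimulation had 44 to 56 higher and 5 to 8 lower at 10000 ng/ml, 29 to 37 and 5 to 6 at 1000, 11 to 14 and 1 to 2 at 100, and 0 and 0 at 10. Hybridoma stimulation had 2 to 5 and 0 to 4 at 10000 nM, 1 to 3 and 0 to 6 at 1000, 1 to 2 and 0 at 100, 0 and 0 at 10, and 0 and 0 to 1 at 1. The difference between systems had 32 to 39 and 3 to 4. Engagement in CD4 cells had 13 to 24 and 7 to 12 in the mean, 0 to 1 and 0 to 1 at dose 0, 0 to 1 and 0 at 10, 1 to 3 and 1 to 9 at 100, 11 to 20 and 0 to 1 at 1000, 1 to 3 and 0 to 3 at 10000, and 4 to 13 and 0 to 2 for 1000 minus 10000 ng/ml. Engagement in the hybridoma had 0 to 1 and 0 in the mean and at 1 nM, and 0 and 0 at the other doses.

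With 2 or 3 libraries a group, small differences can be missed. Clusters under the deposited minimum, and genes in clusters shared by several, are not covered. Assigning those shared clusters to their genes was meant to be tried but was not run, since the tables do not name their genes.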
